A study of Mus musculus with 15 samples.

Results

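The comparison described here is the knockdown of Ddx27, against a control knockdown, in the mouse embryonic stem cell line E14. Its members were taken by the treatment named in each title, which gave 3 Ddx27KD and 3 EGFPKD libraries, 6 of the 15 libraries of the series. Ddx27KD cells received small interfering RNA against Ddx27, and EGFPKD cells received the same dose of small interfering RNA against EGFP. All groups had 400 ng of small interfering RNA with 4 µL of Lipofectamine 2000 for 16 h, were harvested at 48 h and gave poly(A) RNA for sequencing. The other 9 libraries, 3 each after knockdown of Ddx10, Ddx24 and Ddx54, enter where a difference from them is tested and in the shared estimate of the spread. The sequences of the small interfering RNAs, and how many were used for each gene, are not stated in the labels. The design text calls the replicates biological but does not say whether they were separate cultures, so p-values measure the spread between these libraries.

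Ddx27 encodes a DEAD-box RNA helicase, an enzyme that uses ATP to unwind or remodel RNA. In human cells the protein sits in the nucleolus, where it associates with the PeBoW complex of Pes1, Bop1 and Wdr12 and acts in the maturation of the ribosomal RNA of the large subunit. Embryonic stem cells divide quickly, assemble ribosomes at a high rate and depend on a network of pluripotency factors such as Pou5f1, Sox2 and Nanog. Ribosomal RNA has no poly(A) tail and was not measured, so the values below are those of messenger RNAs and polyadenylated noncoding RNAs.

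Expected counts summed to between 26836946 and 27650746 in the 6 libraries. Between 16861 and 17176 of the 23845 genes listed had a count, and 14335 passed the filter on low counts. The first principal component of all 15 libraries held 42.0% of the variance and placed the Ddx27KD libraries at 14.2 to 20.1 and the EGFPKD libraries at -45.2 to -39.7. Levels are in TPM, a scale of relative transcript abundance that corrects for transcript length and depth. The 8 embryonic stem cell markers were all present and summed to 6291 to 6469 TPM in Ddx27KD and 6493 to 6661 TPM in EGFPKD. Of 12 fibroblast markers, 8 stayed below 1 TPM in all 6 libraries and Dcn and Postn were listed at 0, with sums of 14.4 to 18.3 TPM in Ddx27KD and 20.6 to 28.5 TPM in EGFPKD. Of 5 blood and macrophage markers in the files, 4 stayed below 1 TPM and Lyz2 was listed at 0. The sums were 47.4 to 50.1 TPM in Ddx27KD and 41.5 to 48.3 TPM in EGFPKD, so the remaining marker made up most of them. Of the genes named below, exons of Bop1, Wdr12, Tex10, Heatr1, Tk1, Kif4, Fgfr2, Fosl1, Tap1, Setdb1, Thoc6, Top3b, Ddx59, Sulf2 and Tiam2 overlap those of another gene by at least 50 bases, and without a stated strand their reads cannot be told apart from that gene's. In bulk RNA, fewer cells of a type and less RNA per cell cannot be told apart.

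Ddx27 messenger RNA was reduced in every Ddx27KD library. Its level was 37.4, 36.5 and 35.9 TPM in Ddx27KD, against 163, 155 and 158 TPM in EGFPKD, which left 23.1% ± 0.5 of the EGFPKD mean (SD, n = 3). The log2 change was -2.14 ± 0.06 (SE; edgeR quasi-likelihood test, adjusted p = 7.61e-13). The other knockdowns kept 132 to 171 TPM, and no library of another group came near the Ddx27KD levels. In the RefSeq annotation of GRCm38.p6, the assembly of mm10, Ddx27 lies at chr2:167015313-167034945. The closest tested gene, the zinc finger helicase gene Znfx1, lies 0.845 kb beyond its end, on the opposite strand. Znfx1 had 16.4, 12.8 and 16.3 TPM in Ddx27KD, against 16.7, 13.1 and 16.1 TPM in EGFPKD, and the values of both groups overlapped (adjusted p = 0.986). Of the 5 tested neighbours on each side, 3 rose, among them the heparan sulfatase gene Sulf2 at 0.41, and 2 fell, among them the galactosyltransferase gene B4galt5 at -0.35 on the log2 scale. Sulf2 and B4galt5 lie 859.6 and 263.5 kb from Ddx27. Over all genes tested, 17.3% rose and 16.1% fell, and a link to location was not tested.

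**Figure D1:**
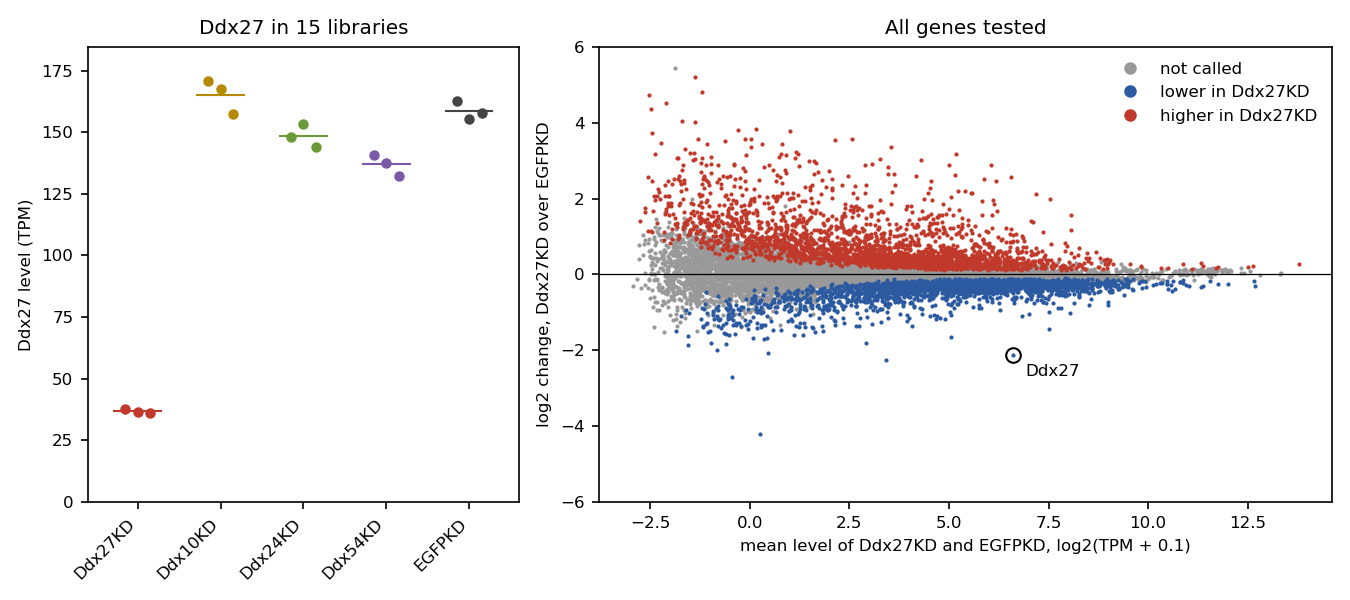
Left, Ddx27 level in TPM in each of the 15 libraries (points) with the mean of each group (lines). Right, the log2 change of every tested gene, Ddx27KD over EGFPKD, against its mean level in both groups on a log2 scale. Red and blue points are genes called at an adjusted p under 0.05. The 3 Ddx27KD libraries sit at 35.9 to 37.4 TPM, and 671 of the 796 called genes that changed at least 2-fold lie above the line.

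The response to the knockdown was broad. Of 14335 genes tested, 2480 rose and 2308 fell in Ddx27KD, which is 33.4% called in either direction, 17.3% higher and 16.1% lower at an adjusted p under 0.05. Changes were mostly small, with a median size of 0.41 on the log2 scale among called genes. Of the 796 called genes that changed at least 2-fold, 671 were higher and 125 lower. The median log2 change of all tested genes was 0.0059. These shares are the background against which the gene lists below are read: a list with close to 17.3% of its members higher and 16.1% lower differs little from all genes. The 3 Ddx27KD and 3 EGFPKD libraries did not overlap in 6511 of the 14335 genes, 4550 of them called, so a lack of overlap was common. Of 49 p53 targets, 43 rose and none fell (by edgeR, DESeq2 and limma-voom alike, with 2 lower at an unadjusted p under 0.05), with Cdkn1a at 1.56 and Mdm2 at 1.99, and of 48 targets of the amino acid response factor Atf4, 36 fell and 3 rose. In the fit with the replicate number as a term, the replicate block, 45.8% of all genes were called, 23.3% higher and 22.6% lower, and 2 p53 targets fell. The account that follows concerns mainly genes outside these 2 lists. Some of them may also respond to p53 or Atf4, which was not tested.

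**Figure D2:**
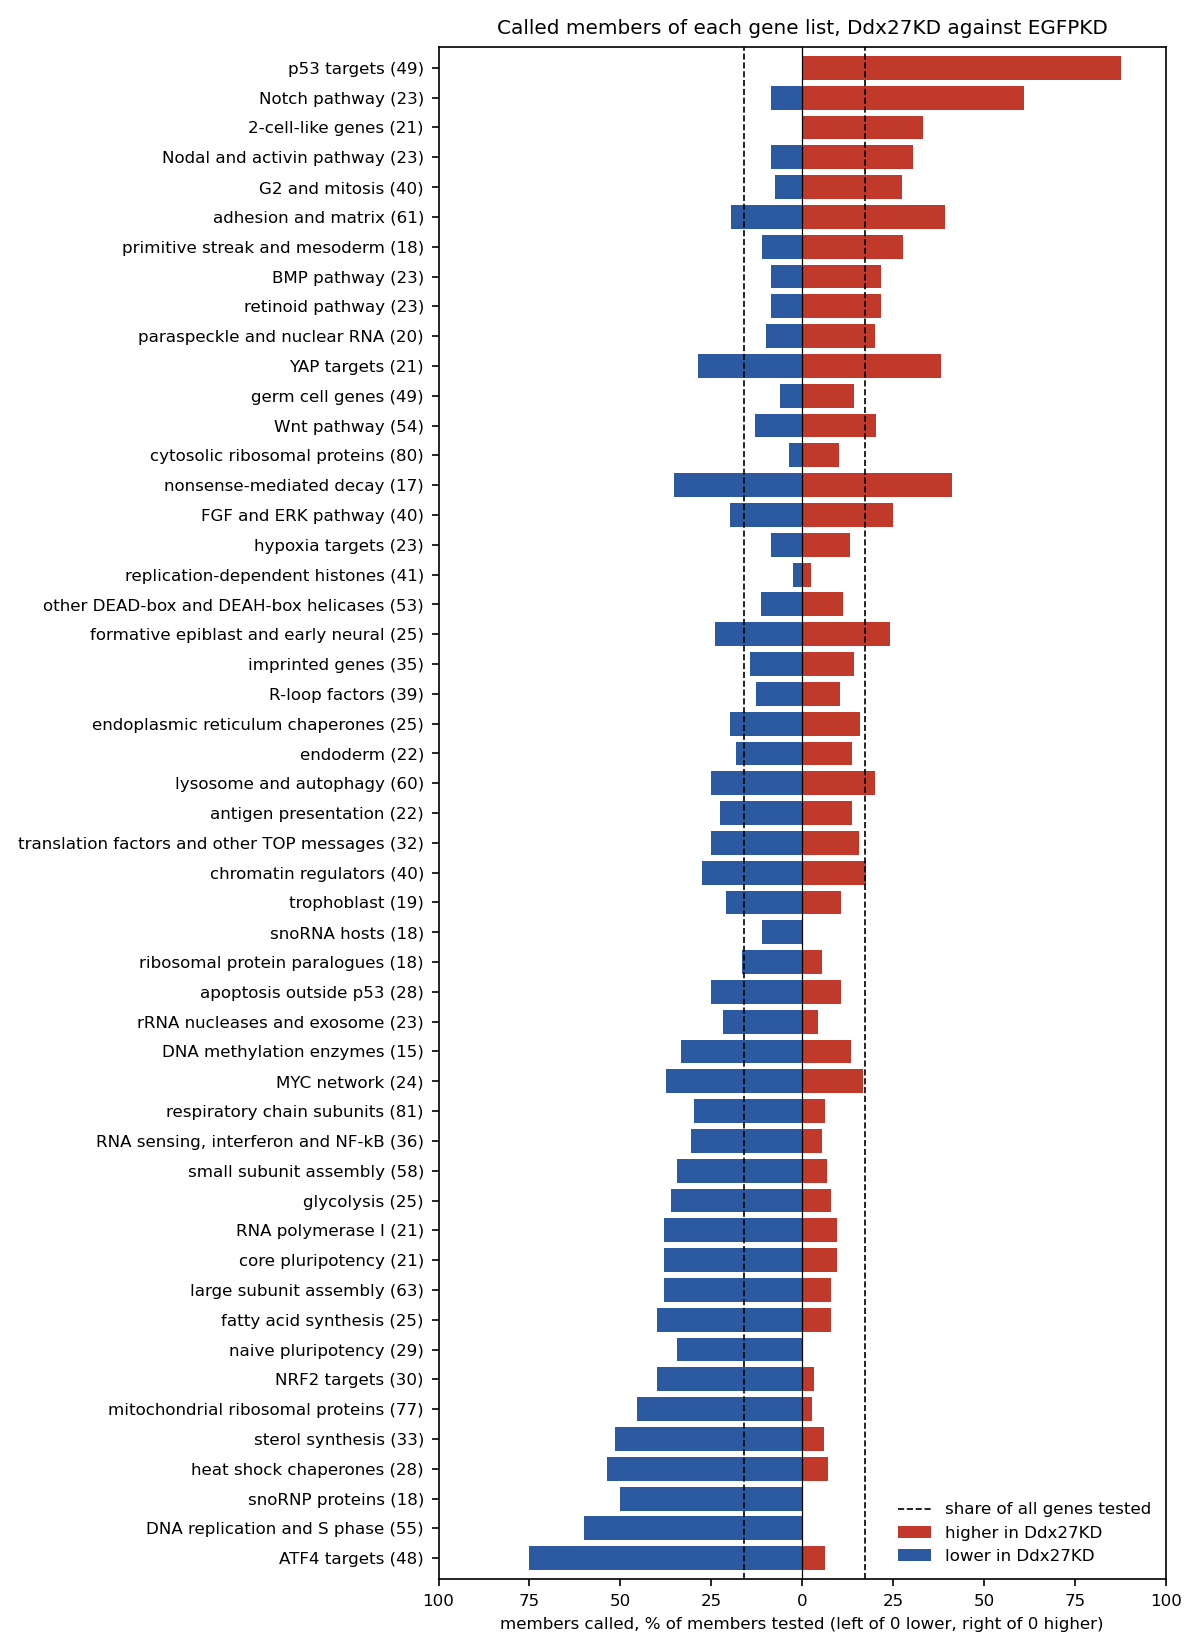
Share of the tested members of each gene list that were called higher (red, right of 0) or lower (blue, left of 0) in Ddx27KD than in EGFPKD, in % of the members tested, whose number stands in parentheses. Dashed lines mark the shares of all genes tested, 17.3% higher and 16.1% lower. Outside the p53 and Atf4 targets, the Notch pathway reaches furthest on the higher side with 14 of 23 members, and DNA replication and S phase furthest on the lower side with 33 of 55.

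Genes of ribosome assembly fell more often than they rose, by small amounts. Of 63 other genes for assembly of the large ribosomal subunit, 24 fell and 5 rose, with a median log2 change of -0.11. In 4 of the 6 fits that left out 1 library (Ddx27KD replicate 1 or 2, EGFPKD replicate 2 or 3), 3 rose. In the PeBoW complex itself, Wdr12 had 55.1, 54.3 and 52.8 TPM in Ddx27KD, against 61.9, 63.6 and 63.2 TPM in EGFPKD, and the groups did not overlap. Its log2 change was -0.25 ± 0.05 (adjusted p = 0.0016). Bop1 had 154, 139 and 137 TPM in Ddx27KD, against 174, 157 and 174 TPM in EGFPKD, with a log2 change of -0.26 ± 0.07 (adjusted p = 0.00652). Pes1 had 279, 266 and 279 TPM in Ddx27KD, against 285, 267 and 303 TPM in EGFPKD, so its groups overlapped and no change was called (log2 change -0.08 ± 0.05, adjusted p = 0.271). Senp3, a nucleolar protease that removes SUMO from assembly factors, had 307, 303 and 309 TPM in Ddx27KD, against 374, 375 and 414 TPM in EGFPKD, and its partner Tex10 had 104, 106 and 113 TPM in Ddx27KD, against 141, 133 and 136 TPM in EGFPKD. Their log2 changes were -0.36 and -0.37 (adjusted p = 4.01e-05 and 4.54e-04). Eif6, which keeps the large subunit from joining the small one too early, fell by the same order, with 178, 169 and 166 TPM in Ddx27KD, against 206, 207 and 218 TPM in EGFPKD and a log2 change of -0.32, as did Zfp622 (-0.34) and Rrp1 (-0.24). The largest rise in the list was that of Ccdc86, a nucleolar protein gene, with 57.2, 54.5 and 49.2 TPM in Ddx27KD, against 40.9, 40.4 and 37.4 TPM in EGFPKD (log2 change 0.42 ± 0.07, adjusted p = 3.05e-04).

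Genes for the small subunit also fell more often than they rose. Of 58 genes for assembly of the small subunit, 20 fell and 4 rose, with a median log2 change of -0.13. With the replicate block 32 fell and 7 rose, 12 fell without EGFPKD replicate 1, and 1 rose without Ddx27KD replicate 1. Among those that fell were Pno1 (-0.32), which acts in the last cleavage of small-subunit RNA, the nucleolar factor Aatf (-0.35), Noc4l (-0.32) and the GTPase gene Bms1 (-0.21). Utp20, a scaffold of the early precursor particle, went the other way. It had 121, 122 and 120.1 TPM in Ddx27KD, against 91.6, 86.2 and 88.8 TPM in EGFPKD, without overlap, and a log2 change of 0.42 ± 0.05 (adjusted p = 4.56e-06). Heatr1, another early scaffold, had a log2 change of -0.11 (adjusted p = 0.0982, and 0.0149 with the replicate block).

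Small nucleolar ribonucleoproteins (snoRNPs) guide the chemical modification of ribosomal RNA. Of 18 genes for their core and assembly proteins, 9 fell and none rose (0 by edgeR, DESeq2 and limma-voom, and 0 at an unadjusted p under 0.05). In the assembly machinery, the ATPase gene Ruvbl1 had 172, 169 and 174 TPM in Ddx27KD, against 241, 244 and 236 TPM in EGFPKD (log2 change -0.51 ± 0.07, adjusted p = 3.96e-05), and its cofactor Rpap3 had a log2 change of -0.38. Nop10, a small core protein of the pseudouridine-forming particles, had 386, 359 and 394 TPM in Ddx27KD, against 527, 495 and 500.2 TPM in EGFPKD (log2 change -0.45 ± 0.06, adjusted p = 2.67e-05). Its catalytic partner Dkc1 had 218, 213 and 217 TPM in Ddx27KD, against 221, 211 and 211 TPM in EGFPKD, with overlapping groups and an adjusted p of 0.911. The methyltransferase gene Fbl had a log2 change of -0.10 (adjusted p = 0.225, and 0.046 with the replicate block). Of 21 genes of RNA polymerase I and its factors, which transcribe ribosomal RNA, 8 fell and 2 rose, and 5 fell without EGFPKD replicate 1. The 8 include subunits shared by all 3 nuclear RNA polymerases, among them Polr2f and Polr2e, which fell by 0.41 and 0.40. Of the subunit genes of polymerase I itself, Polr1a rose (log2 change 0.17 ± 0.06, adjusted p = 0.0253) and Polr1b fell (-0.21 ± 0.07, adjusted p = 0.023). Tcof1, a cofactor of the polymerase, had a log2 change of -0.27 (adjusted p = 3.63e-04), while the initiation factor gene Rrn3 rose, with 230.5, 219.8 and 226 TPM in Ddx27KD, against 200.3, 177 and 183 TPM in EGFPKD (log2 change 0.25 ± 0.05, adjusted p = 8.08e-04). Of 23 nuclease and exosome genes, 5 fell (21.7%) and 1 rose (4.35%). With the replicate block 10 fell, and 3 fell without Ddx27KD replicate 2, Ddx27KD replicate 3 or EGFPKD replicate 1. Exosc10, the nuclear exosome nuclease, was among them at -0.27.

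**Figure D3:**
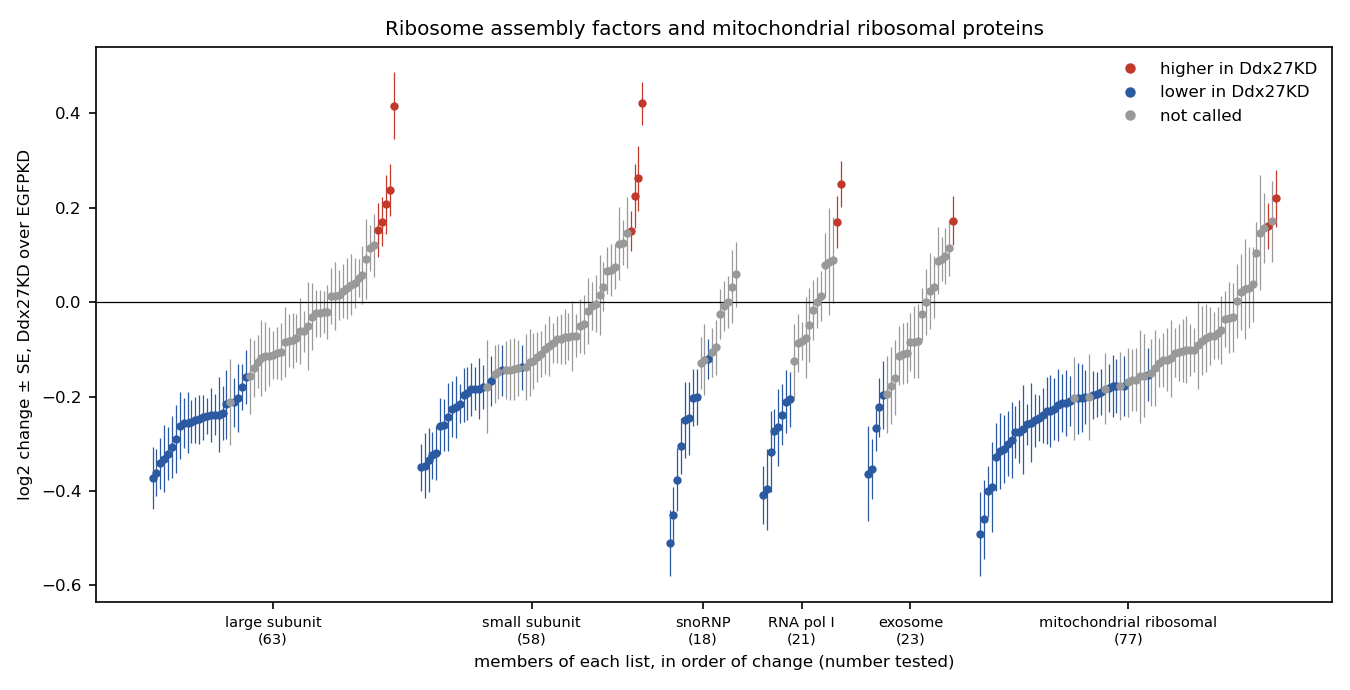
Log2 change (points) with its SE (bars), Ddx27KD over EGFPKD, for each tested member of 5 groups of ribosome assembly genes and of the mitochondrial ribosomal proteins, in order of change within a group, with the number tested in parentheses. Most called members lie between -0.1 and -0.5. Ccdc86 at 0.42 and Utp20 at 0.42 are the highest points.

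Most genes for the ribosomal proteins were not called. Of 80 cytosolic ribosomal protein genes, 8 rose and 3 fell, so 13.8% were called, against 33.4% of all genes, while 71 of the 80 had a positive log2 change, with a median of 0.086. The number called depended on the fit: 34 rose with the replicate block (42.5%, against 23.3% of all genes in that fit), and fits that left out 1 library gave 4 (Ddx27KD replicate 1), 2 (Ddx27KD replicate 2), 13 (Ddx27KD replicate 3), 3 (EGFPKD replicate 1) and 4 (EGFPKD replicate 3). Ribosomal protein genes have many near-identical pseudogenes, and how reads were shared with them is not stated. Rpl3 fell, with 2270.3, 2276 and 2325 TPM in Ddx27KD, against 2777, 2957 and 2792 TPM in EGFPKD (log2 change -0.34 ± 0.05, adjusted p = 1.22e-04). In a list of 18 ribosomal protein genes and paralogues 3 fell and 1 rose, so 22.2% were called. In the blocked fit 5 fell and 4 rose. The largest change was in Rpl22l1, the paralogue of Rpl22. Rpl22l1 had 96.5, 93.6 and 110.3 TPM in Ddx27KD, against 291, 255 and 257 TPM in EGFPKD, a log2 change of -1.45 ± 0.11 (adjusted p = 1.80e-07), while Rpl22 itself had 308, 323 and 297 TPM in Ddx27KD, against 306, 309 and 298 TPM in EGFPKD (adjusted p = 0.986). The other knockdowns had 81.6 to 149 TPM of Rpl22l1, and the difference of Ddx27KD from their mean was -0.20 ± 0.10 (adjusted p = 0.802).

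Eef1a1 and Eef2, elongation factor genes whose messages carry the same 5′ terminal oligopyrimidine tract as those of ribosomal proteins, rose. Eef1a1 had 15285, 15709 and 15613 TPM in Ddx27KD, against 12465, 12599.7 and 12833 TPM in EGFPKD, the largest gain in TPM among the genes ranked by it (log2 change 0.27 ± 0.04, adjusted p = 1.01e-04). Eef2 had 2898, 2746 and 2956 TPM in Ddx27KD, against 2263, 2314 and 2302 TPM in EGFPKD (log2 change 0.30 ± 0.04, adjusted p = 2.37e-05). Over the whole list of 32 translation factors and other such messages, 5 rose and 8 fell, 8 rose and 15 fell with the replicate block, and 3 rose without EGFPKD replicate 3. The initiation factor subunit gene Eif3d was the member with the smallest p among those that fell, with 341, 322 and 337 TPM in Ddx27KD, against 454, 467 and 462 TPM in EGFPKD (log2 change -0.49 ± 0.05, adjusted p = 2.02e-06).

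Genes for the ribosomes of mitochondria fell often. Of 77 mitochondrial ribosomal protein genes, 35 fell and 2 rose, with a median log2 change of -0.17, and 66 of the 77 values were negative. In the blocked fit 48 fell and 4 rose. Mrpl12 had 239, 229.5 and 251 TPM in Ddx27KD, against 299, 296 and 337 TPM in EGFPKD (log2 change -0.40 ± 0.05, adjusted p = 3.05e-05), and Mrpl36 had 91.5, 78.2 and 74.4 TPM in Ddx27KD, against 117, 106 and 114 TPM in EGFPKD (log2 change -0.49 ± 0.09, adjusted p = 5.25e-04). Both genes had every Ddx27KD library below every EGFPKD library. Of 81 nuclear genes for respiratory chain subunits, 24 fell and 5 rose. In the blocked fit 8 rose. Without Ddx27KD replicate 1, 15 fell, and without EGFPKD replicate 2, 14 fell. Without Ddx27KD replicate 2 or EGFPKD replicate 1, 2 rose. Uqcrq of complex III had 479.9, 465 and 461 TPM in Ddx27KD, against 591, 633 and 666 TPM in EGFPKD (log2 change -0.46 ± 0.06, adjusted p = 2.09e-05), and Sdhd of complex II had a log2 change of -0.36. Cox6b2, a testis-type subunit of complex IV, rose, with 102, 125 and 109 TPM in Ddx27KD, against 32.7, 36.6 and 35.5 TPM in EGFPKD (log2 change 1.67 ± 0.14, adjusted p = 2.47e-07).

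Genes of the Notch pathway rose more often than they fell. Notch signalling runs between touching cells: ligands of the Delta and Jagged families on one cell bind Notch receptors on the next, whose cleaved inner part joins the DNA-binding protein Rbpj and turns on targets of the Hes and Hey families. Of 23 tested members, 14 rose and 2 fell, 60.9% and 8.70%, with a median log2 change of 0.30. Among the ligands, Dll1 had 18.9, 17.9 and 20.6 TPM in Ddx27KD, against 2.79, 2.68 and 3.49 TPM in EGFPKD. Its log2 change was 2.65 ± 0.27, a 6.29-fold level (adjusted p = 2.35e-06). Every Ddx27KD library was at least 5 times as high as every EGFPKD library. Jag1 had 29.6, 26.3 and 29.6 TPM in Ddx27KD, against 14.4, 12.02 and 14.8 TPM in EGFPKD (log2 change 1.03 ± 0.14, adjusted p = 5.22e-05), and Jag2 and Dll3 had log2 changes of 0.79 and 0.95.

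Of the receptors, Notch3 had 45.97, 40.05 and 41.8 TPM in Ddx27KD, against 13.8, 13.8 and 14.9 TPM in EGFPKD (log2 change 1.56 ± 0.11, adjusted p = 5.06e-08). Notch1 rose less and averaged 25.1 ± 2.16 TPM in Ddx27KD and 17.6 ± 1.32 TPM in EGFPKD (SD, n = 3 each), a difference called by edgeR (log2 change 0.49 ± 0.11, adjusted p = 0.00363), and Notch4 fell, with a log2 change of -0.39 (adjusted p = 0.00355). Rbpj was the other member to fall, with 148, 166 and 154 TPM in Ddx27KD, against 201, 202 and 206 TPM in EGFPKD (log2 change -0.40 ± 0.06, adjusted p = 1.07e-04). Among the Hes genes, Hes6, an inhibitor of Hes1 known from neurogenesis, had 49.9, 38.9 and 48.96 TPM in Ddx27KD, against 17.4, 12.00 and 15.6 TPM in EGFPKD (log2 change 1.58 ± 0.18, adjusted p = 9.07e-06). Hes1, the best known direct target, averaged 23.4 ± 0.583 TPM in Ddx27KD and 21.2 ± 1.27 TPM in EGFPKD (SD, n = 3 each). Its groups did not overlap, but the difference was not called (log2 change 0.12 ± 0.09, adjusted p = 0.358).

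Nodal and its feedback inhibitors were higher. Nodal is a ligand of the TGF-beta family that acts through activin receptors with the co-receptor Tdgf1, and Lefty1 and Lefty2 are secreted inhibitors that it induces. Nodal had 158, 138 and 124 TPM in Ddx27KD, against 72.5, 61.5 and 65.6 TPM in EGFPKD (log2 change 1.05 ± 0.12, adjusted p = 6.62e-06). Lefty1 had 283, 184 and 218 TPM in Ddx27KD, against 123, 91.4 and 93.04 TPM in EGFPKD (log2 change 1.13 ± 0.17, adjusted p = 1.16e-04), and Lefty2 had 367, 227 and 336 TPM in Ddx27KD, against 234, 126 and 151 TPM in EGFPKD (log2 change 0.84 ± 0.22, adjusted p = 0.00792). For Nodal and Lefty1 the groups did not overlap, while the lowest Ddx27KD value of Lefty2 was below the highest EGFPKD value. Inhbb, the gene for the subunit of activin B, fell, with 10.98, 10.2 and 7.34 TPM in Ddx27KD, against 23.4, 26.9 and 21.5 TPM in EGFPKD (log2 change -1.36 ± 0.18, adjusted p = 3.96e-05). Gdf1, whose exons overlap those of Upf1, had a log2 change of -1.16. Of 23 tested members in all, 7 rose and 2 fell, and 12 rose and 4 fell with the replicate block. Tdgf1 had a log2 change of 0.12 (adjusted p = 0.291, and 0.0335 with the block).

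**Figure D4:**
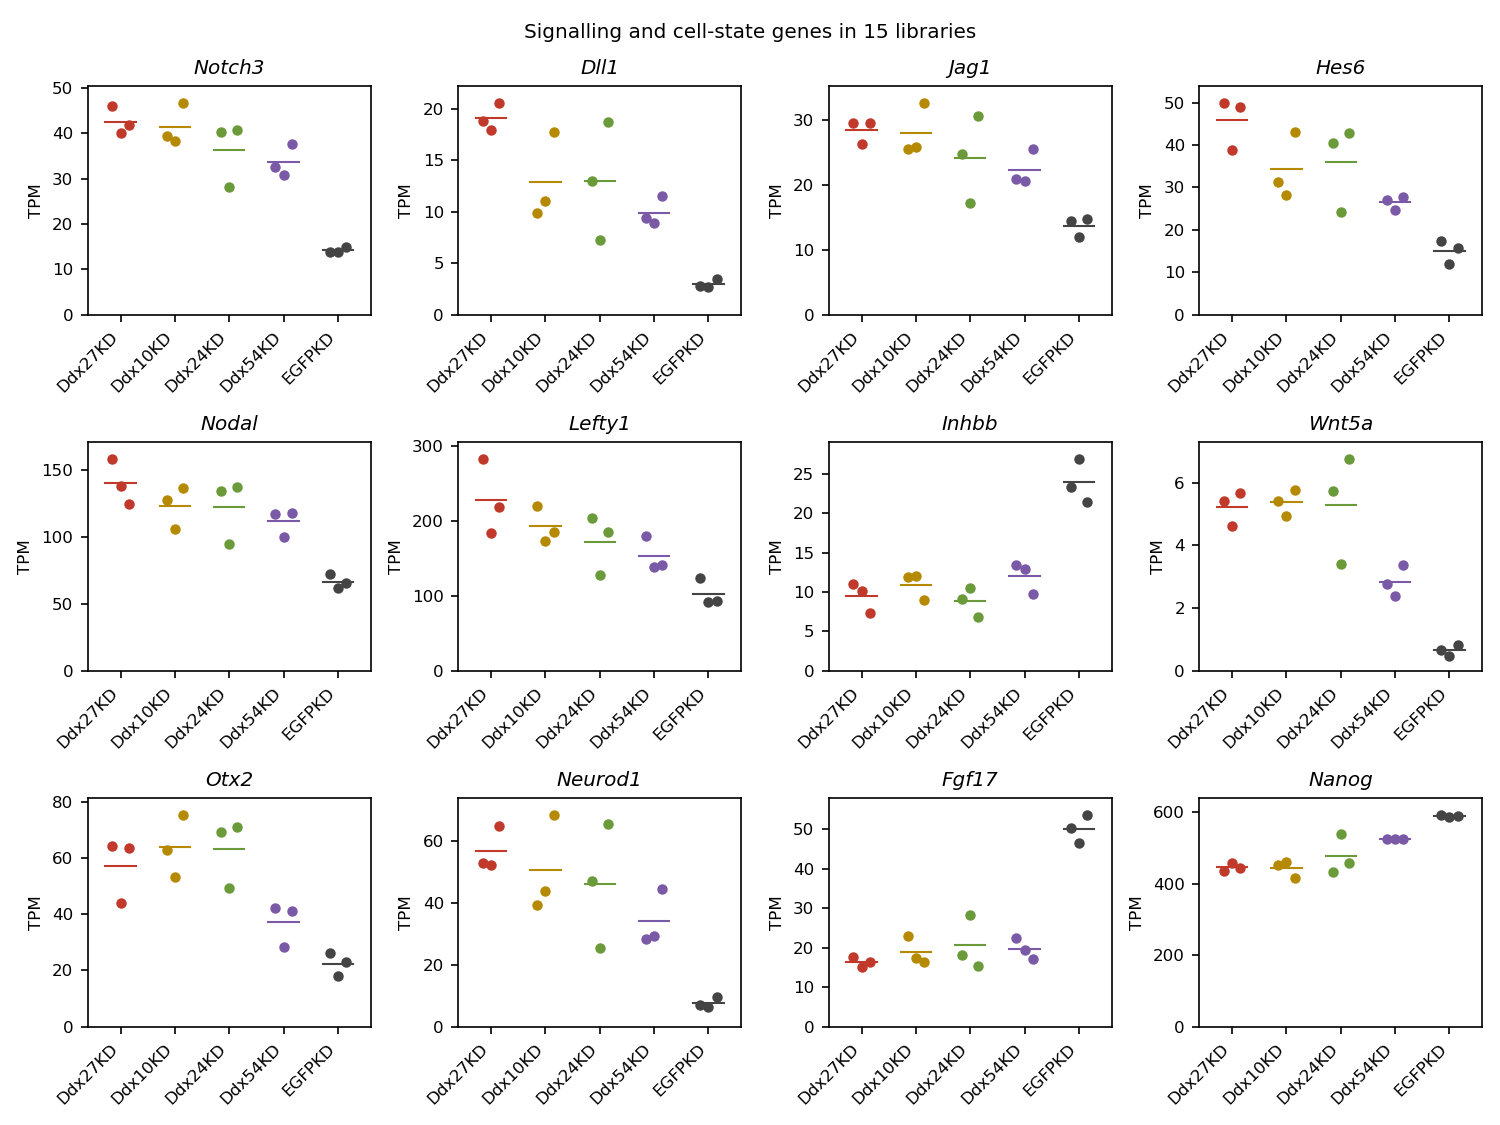
Levels in TPM of 12 signalling and cell-state genes in the 15 libraries (points, 3 per group) with the mean of each group (lines). The 3 Ddx27KD libraries lie above the 3 EGFPKD libraries for Notch3, Dll1, Jag1, Hes6, Nodal, Lefty1, Wnt5a, Otx2 and Neurod1, and below them for Inhbb, Fgf17 and Nanog. The other knockdowns fall on the same side of EGFPKD for these genes.

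Several Wnt ligand genes rose. Wnt5a had 5.40, 4.61 and 5.68 TPM in Ddx27KD, against 0.660, 0.460 and 0.820 TPM in EGFPKD (log2 change 2.98 ± 0.23, adjusted p = 1.74e-07), Wnt8a had 5.52, 4.63 and 4.25 TPM in Ddx27KD, against 0.600, 0.50 and 0.660 TPM in EGFPKD (log2 change 2.99 ± 0.38, adjusted p = 2.27e-05), and Wnt3 and Wnt6 had log2 changes of 2.60 and 2.07. None of the 4 overlapped between the groups, as was true of 6511 of all 14335 genes tested. Axin2, the usual readout of canonical Wnt signalling, was not called and had 14.4, 13.5 and 16.1 TPM in Ddx27KD, against 13.1, 12.6 and 16.2 TPM in EGFPKD (log2 change 0.04 ± 0.15, adjusted p = 0.841). The secreted Wnt inhibitors Notum and Sfrp1 fell. Notum had 47.9, 41.4 and 55.3 TPM in Ddx27KD, against 74.6, 65.2 and 78.9 TPM in EGFPKD (log2 change -0.62 ± 0.10, adjusted p = 1.87e-04), and Sfrp1 had a log2 change of -0.86. Of 54 tested members, 11 rose and 7 fell, close to the shares of all genes.

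Fibroblast growth factors (FGFs) act through ERK kinases and push embryonic stem cells out of the naive state. Fgf17 showed the largest fall after Ddx27 among the genes ranked by size of change, a ranking that left out the p53 and Atf4 targets. Among the Atf4 targets the lowest called log2 change was -2.25. Fgf17 had 17.6, 15.04 and 16.4 TPM in Ddx27KD, against 50.3, 46.6 and 53.6 TPM in EGFPKD (log2 change -1.65 ± 0.18, adjusted p = 5.79e-06). Fgf4, the main autocrine ligand of these cells, had 105, 80.2 and 90.7 TPM in Ddx27KD, against 121, 103 and 106 TPM in EGFPKD, with overlapping groups (log2 change -0.28 ± 0.14, adjusted p = 0.131, and 7.39e-04 with the replicate block). The receptor gene Fgfr2 rose, with 13.3, 13.03 and 15.1 TPM in Ddx27KD, against 8.71, 8.63 and 9.40 TPM in EGFPKD (log2 change 0.61 ± 0.10, adjusted p = 3.59e-04). Fosl1, a transcription factor induced by ERK, had 4.26, 4.66 and 2.62 TPM in Ddx27KD, against 0.210, 0.540 and 0.430 TPM in EGFPKD (log2 change 3.22 ± 0.45, adjusted p = 4.92e-05). In all, 10 of 40 tested members rose and 8 fell. Among 23 BMP pathway genes 5 rose and 2 fell, so 30.4% were called, against 33.4% of all genes. Without EGFPKD replicate 1 or 2, 3 rose. The ligand Bmp7 had 4.99, 5.31 and 5.97 TPM in Ddx27KD, against 1.12, 1.59 and 0.980 TPM in EGFPKD (log2 change 2.11 ± 0.24, adjusted p = 6.77e-06), while Bmp4, which sustains the naive state, had 57.6, 69.7 and 64.6 TPM in Ddx27KD, against 83.9, 89.4 and 85.2 TPM in EGFPKD (log2 change -0.46 ± 0.12, adjusted p = 0.00614). The BMP target gene Id1 had 65.8, 48.9 and 45.7 TPM in Ddx27KD, against 60.6, 46.7 and 59.9 TPM in EGFPKD (adjusted p = 0.726).

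Targets and regulators of the Hippo pathway effector YAP split, with 8 of 21 higher and 6 lower. Ptpn14, a phosphatase that restrains YAP, had 30.7, 34.5 and 27.2 TPM in Ddx27KD, against 4.50, 5.53 and 5.06 TPM in EGFPKD (log2 change 2.59 ± 0.14, adjusted p = 1.25e-08). Amotl1, which also binds YAP, had a log2 change of 1.09. Of the best known targets, Cyr61 had 19.03, 44.5 and 21.1 TPM in Ddx27KD, against 7.83, 17.5 and 12.3 TPM in EGFPKD (log2 change 1.15 ± 0.41, adjusted p = 0.0404), and the groups did not overlap. DESeq2 and limma-voom did not call it, and edgeR lost the call without Ddx27KD replicate 2 (log2 change 0.63, adjusted p = 0.268), EGFPKD replicate 1 (0.89, adjusted p = 0.154) or EGFPKD replicate 3 (1.12, adjusted p = 0.0988). Ctgf had 31.9, 57.2 and 28.9 TPM in Ddx27KD, against 21.6, 34.05 and 25.03 TPM in EGFPKD, a difference within the spread of the libraries (adjusted p = 0.172). With the replicate block the adjusted p of Ctgf was 1.11e-04. For both genes replicate 2 was the highest library of each group. Retinoid pathway genes had 5 of 23 higher and 2 lower, so 30.4% were called, against 33.4% of all genes. Without Ddx27KD replicate 2 or EGFPKD replicate 1, 3 were higher.

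Some markers of naive pluripotency fell. Of 29 tested members, 10 fell and none rose (0 by edgeR, DESeq2 and limma-voom, and 2 at an unadjusted p under 0.05), with a median log2 change of -0.10, and with the replicate block 14 fell and 5 rose. Zfp42, also called Rex1, had 686, 629 and 706 TPM in Ddx27KD, against 892, 821 and 899 TPM in EGFPKD (log2 change -0.40 ± 0.05, adjusted p = 1.02e-05). Tcl1 had 91.5, 86.1 and 94.05 TPM in Ddx27KD, against 136, 138 and 127 TPM in EGFPKD (log2 change -0.59 ± 0.08, adjusted p = 3.15e-05), and Nr0b1 and Klf2 had log2 changes of -0.54 and -0.37. Klf4 had 124, 161 and 129.6 TPM in Ddx27KD, against 107, 146 and 132 TPM in EGFPKD, with overlapping groups (adjusted p = 0.701). Of 21 core pluripotency genes, 8 fell and 2 rose, and 4 rose with the block. Nanog had 434, 458 and 444 TPM in Ddx27KD, against 592, 586 and 588 TPM in EGFPKD (log2 change -0.43 ± 0.07, adjusted p = 3.82e-04). Sox2 rose, with 631, 573 and 623 TPM in Ddx27KD, against 499.8, 480.3 and 514 TPM in EGFPKD (log2 change 0.27 ± 0.05, adjusted p = 0.00117). Pou5f1 was high in both groups, with 1536, 1488 and 1443 TPM in Ddx27KD, against 1619, 1667 and 1678 TPM in EGFPKD. Its log2 change was -0.18 ± 0.05 (adjusted p = 0.0133), and the call was lost without Ddx27KD replicate 3 or EGFPKD replicate 2.

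Genes of the formative state, the step that follows naive pluripotency, rose in part. Otx2, the transcription factor that leads this step, had 64.6, 43.9 and 63.7 TPM in Ddx27KD, against 26.2, 17.97 and 23.1 TPM in EGFPKD (log2 change 1.33 ± 0.18, adjusted p = 3.49e-05). Pou3f1, also called Oct6, had 29.9, 18.3 and 29.8 TPM in Ddx27KD, against 10.96, 7.22 and 12.3 TPM in EGFPKD (log2 change 1.33 ± 0.24, adjusted p = 4.77e-04). In both groups replicate 2 was the lowest library for both genes, and the groups did not overlap. Neurod1, a proneural factor whose exons overlap those of Cerkl, had 52.8, 52.3 and 64.8 TPM in Ddx27KD, against 6.90, 6.17 and 9.52 TPM in EGFPKD (log2 change 2.88 ± 0.29, adjusted p = 2.49e-06). Fgf5, the classical formative marker, stayed at 0.370, 0.360 and 0.530 TPM in Ddx27KD, against 0.300, 0.300 and 0.240 TPM in EGFPKD (adjusted p = 0.221). Over the list of 25 tested genes, called log2 changes ran from -0.933 to 2.885, and 3 genes fell without Ddx27KD replicate 2. Mesoderm, endoderm and trophoblast lists showed no common direction, with 38.9%, 31.8% and 31.6% called, against 33.4% of all genes. Among 18 mesoderm genes 5 rose and 2 fell, and none fell without Ddx27KD replicate 1, Ddx27KD replicate 2 or EGFPKD replicate 1. Among 19 trophoblast genes 2 rose and 4 fell, with Phlda2 among those that fell (log2 change -1.01 ± 0.11, adjusted p = 4.27e-06), and 4 rose with the block. The endoderm list had 3 of 22 higher and 4 lower, with 5 higher without Ddx27KD replicate 3 and 2 lower without Ddx27KD replicate 1 or 3 or EGFPKD replicate 2. The summed level of 8 endoderm markers was 3.43 to 6.66 TPM in Ddx27KD and 2.81 to 3.55 TPM in EGFPKD.

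The de novo DNA methyltransferases moved in opposite directions. Dnmt3a had 43.2, 42.1 and 47.8 TPM in Ddx27KD, against 29.7, 27.2 and 30.8 TPM in EGFPKD (log2 change 0.57 ± 0.10, adjusted p = 5.46e-04), and Dnmt3b had 201, 166 and 195 TPM in Ddx27KD, against 261, 215 and 254 TPM in EGFPKD (log2 change -0.40 ± 0.11, adjusted p = 0.00924). Uhrf1, which brings the maintenance enzyme Dnmt1 to replicated DNA, fell, with 244, 227 and 238 TPM in Ddx27KD, against 339, 321 and 336 TPM in EGFPKD (log2 change -0.52 ± 0.05, adjusted p = 1.64e-06), while Dnmt1 itself had 197, 195 and 202 TPM in Ddx27KD, against 194, 186 and 194 TPM in EGFPKD (adjusted p = 0.588). 3 genes of repressors that act on histone H3 lysine 9 fell as well. Ehmt2, also called G9a, had 82.97, 78.8 and 81.8 TPM in Ddx27KD, against 127, 122 and 119.7 TPM in EGFPKD (log2 change -0.62 ± 0.07, adjusted p = 1.19e-05). Trim28 had 1458, 1389.6 and 1421 TPM in Ddx27KD, against 1843, 1757 and 1891 TPM in EGFPKD (log2 change -0.39 ± 0.05, adjusted p = 2.02e-05), and its partner Setdb1 had a log2 change of -0.31. Of 40 chromatin regulators, 11 fell and 7 rose, 11 rose with the replicate block, and 4 rose without EGFPKD replicate 1 or 2. Of 15 DNA methylation genes, 5 fell and 2 rose.

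Genes of 2-cell-like cells, a rare state in embryonic stem cell cultures, were higher where called. Of 21 tested members, 7 rose and none fell (0 by edgeR, DESeq2 and limma-voom, and 0 at an unadjusted p under 0.05), with a median log2 change of 0.45, and 20 of the 21 values were positive. With the replicate block 11 rose, but 2 rose without Ddx27KD replicate 1, Ddx27KD replicate 2 or EGFPKD replicate 2 and 3 without EGFPKD replicate 1. Dux, the factor that drives the state, had 0.840, 0.850 and 0.890 TPM in Ddx27KD, against 0.260, 0.150 and 0.450 TPM in EGFPKD (log2 change 1.55 ± 0.37, adjusted p = 0.00445). Zscan4c, the best known marker, had 17.2, 14.1 and 12.5 TPM in Ddx27KD, against 10.2, 9.31 and 12.02 TPM in EGFPKD (log2 change 0.45 ± 0.17, adjusted p = 0.0569, and 0.0273 with the block). Both belong to multicopy families, between whose copies reads cannot be placed with certainty. Of 49 germ cell genes, 7 rose and 3 fell, so 20.4% were called, against 33.4% of all genes. With the block 12 rose and 7 fell, and 5 fell without Ddx27KD replicate 3. Hormad1, a protein of meiotic chromosome axes, had 34.6, 38.2 and 39.7 TPM in Ddx27KD, against 13.98, 14.02 and 15.7 TPM in EGFPKD (log2 change 1.34 ± 0.15, adjusted p = 5.01e-06). Stra8, a gatekeeper of meiosis, had 1.35, 2.14 and 1.97 TPM in Ddx27KD, against 3.22, 7.95 and 4.02 TPM in EGFPKD (log2 change -1.50 ± 0.38, adjusted p = 0.00577). Among 35 imprinted genes 5 rose and 5 fell, so 28.6% were called, against 33.4% of all genes. With the block 12 rose and 7 fell, so 54.3% were called, against 45.8% of all genes.

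Genes of DNA replication and S phase fell in large number. Of 55 tested members, 33 fell and none rose (0 by edgeR, DESeq2 and limma-voom, and 0 at an unadjusted p under 0.05), 60.0% against 16.1% of all genes, with a median log2 change of -0.19. The replication clamp gene Pcna had 555, 545 and 561 TPM in Ddx27KD, against 814, 769 and 795 TPM in EGFPKD (log2 change -0.54 ± 0.06, adjusted p = 1.02e-05). The thymidine kinase gene Tk1 had 78.8, 75.7 and 83.6 TPM in Ddx27KD, against 118, 113 and 125 TPM in EGFPKD (log2 change -0.61 ± 0.06, adjusted p = 1.23e-06). The cyclin gene Ccne1, which drives entry into S phase, had 254, 252 and 239 TPM in Ddx27KD, against 393, 364 and 359 TPM in EGFPKD (log2 change -0.61 ± 0.10, adjusted p = 2.00e-04). In each of the 3 genes the lowest EGFPKD library was well above the highest Ddx27KD library. The licensing factor genes Cdc6, Cdt1 and Mcm10 had log2 changes of -0.49, -0.38 and -0.38. Mcm2, a subunit of the replicative helicase, had a log2 change of -0.10 (adjusted p = 0.155, and 0.0155 with the replicate block). Replication-dependent histone messages mostly lack a poly(A) tail, and of the 41 that were tested 1 rose and 1 fell.

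Genes of G2 and mitosis rose more often than they fell. Of 40 tested members, 11 rose and 3 fell (27.5% and 7.5%, against 17.3% and 16.1% of all genes), with a median log2 change of 0.08. With the block 17 rose and 5 fell (42.5% and 12.5%, against 23.3% and 22.6% of all genes), and 1 fell without EGFPKD replicate 1. The largest called fall in the list was that of the kinase gene Cdk1, with a log2 change of -0.25. The chromosome motor gene Kif4 had 30.6, 31.4 and 31.9 TPM in Ddx27KD, against 24.97, 24.6 and 22.5 TPM in EGFPKD (log2 change 0.36 ± 0.05, adjusted p = 6.59e-05). Foxm1, which turns on mitotic genes, had 47.4, 51.8 and 48.9 TPM in Ddx27KD, against 38.9, 42.2 and 40.3 TPM in EGFPKD (log2 change 0.26 ± 0.06, adjusted p = 0.00157). Cenpa, the centromere histone, and Pttg1, the securin gene, had log2 changes of 0.24 and 0.39. The kinase gene Plk1 fell, with 186, 182 and 179.9 TPM in Ddx27KD, against 207, 211 and 197 TPM in EGFPKD (log2 change -0.19 ± 0.05, adjusted p = 0.00945). The cyclin gene Ccnb1 had 273, 281 and 278 TPM in Ddx27KD, against 277, 275 and 269 TPM in EGFPKD, so the groups overlapped (adjusted p = 0.961). Ccnd2, a cyclin of G1, was lower by more than 2-fold, with 13.04, 15.8 and 15.2 TPM in Ddx27KD, against 32.7, 27.7 and 32.1 TPM in EGFPKD (log2 change -1.09 ± 0.12, adjusted p = 5.29e-06).

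The promoters of these lists are shown because many of their members moved in 1 direction and both kinds of promoter have textbook motifs. Replication genes often carry sites for E2F factors, searched here as TTTGGCGC and TTTCGCGC on both strands, and mitotic genes often carry a cell cycle homology region, searched as TTTGAA on both strands. Windows ran from 250 bases before to 50 bases after each start in the RefSeq annotation of GRCm38.p6, and a gene counts if any of its windows holds the motif. An E2F motif was found in 12 of 45 replication genes with a window, 8 of the 26 that fell and 4 of the other 19, against 1.77% of 10734 tested genes with a window and 0.813% of all 32851 windows. The sequence TTTGAA was found in 22 of 32 mitotic genes, 7 of the 9 that rose and 15 of the other 23, against 13.97% of tested genes and 17.89% of all windows. The first 4 lines are the replication genes with the smallest p among those that fell and hold an E2F motif, and the other 2 are the mitotic genes with the smallest p among those that rose and hold TTTGAA. Sequences run 5′ to 3′ in the direction of the gene, with matches in capitals. The windows lie at chr17:56304063-56304362 for Uhrf1 (plus strand), chr8:122567765-122568064 for Cdt1 (plus strand), chr7:13278576-13278875 for Lig1 (plus strand), chr1:128359656-128359955 for Mcm6 (minus strand), chrX:100625815-100626114 for Kif4 (plus strand) and chr5:30666636-30666935 for Cenpa (plus strand). In Mcm6 the first capital run holds 2 matches that overlap, 1 on each strand.
Uhrf1: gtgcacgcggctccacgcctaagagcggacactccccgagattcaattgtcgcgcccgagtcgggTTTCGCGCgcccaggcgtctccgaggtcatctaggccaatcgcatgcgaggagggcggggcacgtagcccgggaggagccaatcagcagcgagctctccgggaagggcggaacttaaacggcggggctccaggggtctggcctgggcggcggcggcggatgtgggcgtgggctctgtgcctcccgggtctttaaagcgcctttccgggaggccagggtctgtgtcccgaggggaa
Cdt1: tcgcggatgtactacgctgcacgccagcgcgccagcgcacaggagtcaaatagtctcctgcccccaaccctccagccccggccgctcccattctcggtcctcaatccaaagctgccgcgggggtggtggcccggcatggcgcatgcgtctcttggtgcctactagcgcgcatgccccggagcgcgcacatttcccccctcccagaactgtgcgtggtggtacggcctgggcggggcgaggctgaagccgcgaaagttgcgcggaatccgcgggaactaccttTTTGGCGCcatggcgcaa
Lig1: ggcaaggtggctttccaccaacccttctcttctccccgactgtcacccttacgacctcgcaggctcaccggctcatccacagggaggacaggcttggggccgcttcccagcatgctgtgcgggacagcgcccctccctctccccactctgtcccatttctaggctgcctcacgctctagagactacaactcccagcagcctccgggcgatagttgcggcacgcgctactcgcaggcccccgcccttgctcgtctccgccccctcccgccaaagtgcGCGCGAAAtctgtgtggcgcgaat
Mcm6: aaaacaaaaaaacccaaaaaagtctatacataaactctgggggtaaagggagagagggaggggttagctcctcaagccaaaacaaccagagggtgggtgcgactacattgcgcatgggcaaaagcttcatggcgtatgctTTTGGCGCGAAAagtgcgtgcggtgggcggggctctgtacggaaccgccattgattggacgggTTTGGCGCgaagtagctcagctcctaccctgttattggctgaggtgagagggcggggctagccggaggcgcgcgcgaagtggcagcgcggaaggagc
Kif4: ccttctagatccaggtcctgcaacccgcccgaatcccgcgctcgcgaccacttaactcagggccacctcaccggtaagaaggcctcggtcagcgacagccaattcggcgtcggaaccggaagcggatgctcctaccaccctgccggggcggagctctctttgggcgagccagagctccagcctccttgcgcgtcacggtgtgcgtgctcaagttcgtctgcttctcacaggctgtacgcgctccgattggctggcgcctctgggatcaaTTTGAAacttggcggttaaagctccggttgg
Cenpa: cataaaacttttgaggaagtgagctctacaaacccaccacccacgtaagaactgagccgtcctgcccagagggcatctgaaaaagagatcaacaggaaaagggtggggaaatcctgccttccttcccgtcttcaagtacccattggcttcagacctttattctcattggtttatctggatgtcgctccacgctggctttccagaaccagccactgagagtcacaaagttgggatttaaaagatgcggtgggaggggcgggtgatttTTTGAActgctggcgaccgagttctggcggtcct

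The 4 replication genes shown fell by 0.30 to 0.52 on the log2 scale. Lig1, the ligase that joins Okazaki fragments, had 164, 161 and 168 TPM in Ddx27KD, against 201, 193 and 203 TPM in EGFPKD (log2 change -0.30 ± 0.04, adjusted p = 3.93e-05), and Mcm6, a subunit of the replicative helicase, had 259, 259.8 and 287 TPM in Ddx27KD, against 328, 323 and 331 TPM in EGFPKD (log2 change -0.31 ± 0.05, adjusted p = 2.29e-04). In Uhrf1 and Cdt1 (-0.52 and -0.38) the capitals mark a single match. Kif4 and Cenpa, which rose, each hold TTTGAA once. A match describes these letters only, and members without a match were also called.

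Myc and Mycn moved in opposite directions. Myc had 69.95, 68.6 and 64.03 TPM in Ddx27KD, against 95.03, 78.00 and 93.2 TPM in EGFPKD (log2 change -0.42 ± 0.07, adjusted p = 3.33e-04), and Mycn, the family member with the higher level in these cells, had 338, 286 and 357 TPM in Ddx27KD, against 237, 203 and 264 TPM in EGFPKD (log2 change 0.45 ± 0.10, adjusted p = 0.00343). Mxd4, which competes with MYC proteins for their partner Max, had 6.34, 6.38 and 3.77 TPM in Ddx27KD, against 1.84, 2.03 and 2.11 TPM in EGFPKD (log2 change 1.44 ± 0.24, adjusted p = 2.46e-04). Of 24 members of the MYC network, 9 fell and 4 rose, 15 fell with the replicate block, and 5 fell without Ddx27KD replicate 3 or EGFPKD replicate 1. Among its targets, Cad, the enzyme that starts pyrimidine synthesis, rose, with 208, 191 and 200.5 TPM in Ddx27KD, against 141, 133 and 139 TPM in EGFPKD (log2 change 0.52 ± 0.05, adjusted p = 1.25e-06).

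Several metabolic lists held more falls than rises. Of 33 genes of sterol synthesis and its control, 17 fell and 2 rose, with a median log2 change of -0.22. Sqle, squalene epoxidase, had 62.4, 54.5 and 66.04 TPM in Ddx27KD, against 88.7, 80.4 and 79.8 TPM in EGFPKD (log2 change -0.47 ± 0.08, adjusted p = 3.89e-04), and Ebp, a sterol isomerase, had 25.5, 26.9 and 28.4 TPM in Ddx27KD, against 42.1, 38.2 and 38.3 TPM in EGFPKD (log2 change -0.58 ± 0.08, adjusted p = 3.89e-05). Srebf2, the transcription factor of the pathway, had a log2 change of -0.22 (adjusted p = 0.00462). Its escort protein gene Scap and the exporter gene Abcg1 were the ones to rise, with log2 changes of 0.66 and 0.91. Ddx27KD replicate 3 was the highest of its group for Sqle and Ebp.

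Fatty acid synthesis genes showed the same tendency, with 10 of 25 lower and 2 higher. The count of lower genes was 5 without Ddx27KD replicate 1, Ddx27KD replicate 2 or EGFPKD replicate 3. The desaturase gene Scd1 had 41.8, 36.7 and 65.04 TPM in Ddx27KD, against 81.2, 67.9 and 80.9 TPM in EGFPKD (log2 change -0.71 ± 0.14, adjusted p = 8.49e-04). Lpin1, a phosphatidate phosphatase and coactivator, rose, with 24.7, 24.9 and 26.5 TPM in Ddx27KD, against 7.43, 8.60 and 7.97 TPM in EGFPKD (log2 change 1.64 ± 0.14, adjusted p = 2.76e-07). In glycolysis 9 of 25 genes fell and 2 rose, and 4 rose with the block. Eno3, the muscle enolase, had 10.3, 10.4 and 9.11 TPM in Ddx27KD, against 19.3, 20.01 and 22.9 TPM in EGFPKD (log2 change -1.08 ± 0.10, adjusted p = 1.00e-06), and the lactate transporter gene Slc16a1 had 50.2, 44.8 and 60.8 TPM in Ddx27KD, against 81.2, 71.7 and 79.3 TPM in EGFPKD (log2 change -0.60 ± 0.10, adjusted p = 2.03e-04). The glucose transporter gene Slc2a1 rose, with 579.7, 537 and 591 TPM in Ddx27KD, against 439, 441 and 396 TPM in EGFPKD (log2 change 0.40 ± 0.05, adjusted p = 4.29e-05). Pkm, the main pyruvate kinase, had 3015, 2734 and 3038 TPM in Ddx27KD, against 3011, 3024 and 2935 TPM in EGFPKD (adjusted p = 0.475).

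Of 30 targets of the oxidative stress factor NRF2, 12 fell and 1 rose, with a median log2 change of -0.19, and 19 fell with the replicate block. Those with the smallest p were enzymes of the pentose phosphate pathway, which yields NADPH. Tkt, transketolase, had 306, 298 and 327 TPM in Ddx27KD, against 428, 427 and 427 TPM in EGFPKD (log2 change -0.49 ± 0.04, adjusted p = 9.19e-07), and Pgd had 132, 127 and 136 TPM in Ddx27KD, against 199.7, 187 and 187 TPM in EGFPKD (log2 change -0.56 ± 0.05, adjusted p = 1.23e-06). The classical target Nqo1 had 33.7, 39.98 and 35.7 TPM in Ddx27KD, against 38.2, 43.6 and 41.1 TPM in EGFPKD (adjusted p = 0.0873, and 0.00548 with the block). Hypoxia targets were called no more often than all genes, with 3 of 23 higher and 2 lower, 5 lower with the block and 4 lower without Ddx27KD replicate 3.

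Cytosolic chaperone genes fell more often than they rose. Of 28 heat shock genes, 15 fell and 2 rose, with a median log2 change of -0.17. Hspa8, the constitutive HSP70 gene, had 5769, 6039 and 6148 TPM in Ddx27KD, against 7332, 7135 and 7347 TPM in EGFPKD, the largest loss in TPM among the genes ranked by it (log2 change -0.31 ± 0.06, adjusted p = 5.68e-04). Hsp90aa1 had 3709, 3845 and 3927 TPM in Ddx27KD, against 4598, 4469 and 4328 TPM in EGFPKD (log2 change -0.25 ± 0.05, adjusted p = 0.00155), and the co-chaperone genes Hspa4 and Fkbp4 had log2 changes of -0.40 and -0.38. The stress-induced Hspa1a was low in both groups and rose, with 3.44, 2.42 and 2.98 TPM in Ddx27KD, against 1.62, 1.66 and 1.37 TPM in EGFPKD (log2 change 0.91 ± 0.20, adjusted p = 0.00271). Chaperones of the endoplasmic reticulum showed no common direction, with 4 of 25 higher and 5 lower. Fits without 1 library gave 1 to 3 higher and 2 to 5 lower. Hspa5, the main one, had 369, 389 and 333 TPM in Ddx27KD, against 367, 378 and 346 TPM in EGFPKD (adjusted p = 0.848).

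Genes of innate immunity fell more often than they rose. Of 36 genes of RNA sensing, interferon and NF-kB signalling, 11 fell and 2 rose, and 13 fell and 7 rose with the replicate block. Ddx58, the RIG-I helicase that senses foreign RNA, had 30.01, 25.3 and 33.9 TPM in Ddx27KD, against 48.4, 42.9 and 51.5 TPM in EGFPKD (log2 change -0.70 ± 0.10, adjusted p = 7.59e-05). Oas1a, which makes the second messenger of RNase L, had 17.2, 16.4 and 18.9 TPM in Ddx27KD, against 25.01, 30.2 and 27.9 TPM in EGFPKD (log2 change -0.69 ± 0.09, adjusted p = 3.13e-05), and the NF-kB subunit gene Relb had a log2 change of -0.61. The sensor gene Ifih1 and the interferon factor gene Irf7 were below 0.1 TPM in all 6 libraries and were not tested. Antigen presentation genes split, with 3 of 22 higher and 5 lower, 8 lower with the block and 3 lower without Ddx27KD replicate 2 or EGFPKD replicate 3. Tap1, a subunit of the peptide transporter, had 9.95, 9.28 and 8.77 TPM in Ddx27KD, against 1.67, 1.44 and 1.42 TPM in EGFPKD (log2 change 2.60 ± 0.22, adjusted p = 3.19e-07). The nonclassical class I gene H2-T23 had 10.5, 9.57 and 10.7 TPM in Ddx27KD, against 19.7, 17.03 and 17.5 TPM in EGFPKD (log2 change -0.84 ± 0.13, adjusted p = 1.16e-04).

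Genes of adhesion and extracellular matrix rose more often than they fell, with 24 of 61 higher (39.3%, against 17.3% of all genes) and 12 lower (19.7%, against 16.1%). The protease inhibitor gene Serpine2 had 66.4, 68.1 and 59.8 TPM in Ddx27KD, against 6.66, 7.46 and 7.01 TPM in EGFPKD (log2 change 3.18 ± 0.15, adjusted p = 3.53e-09). Plod2, which hydroxylates collagen, had 65.3, 62.05 and 62.5 TPM in Ddx27KD, against 24.6, 28.6 and 23.2 TPM in EGFPKD (log2 change 1.29 ± 0.09, adjusted p = 4.94e-08), and the collagen chaperone gene Serpinh1 had a log2 change of 0.82. Integrin genes were among those that fell: Itga5 had 19.6, 19.6 and 15.4 TPM in Ddx27KD, against 30.9, 34.2 and 29.2 TPM in EGFPKD (log2 change -0.81 ± 0.14, adjusted p = 4.12e-04), and Itgb1 had a log2 change of -0.44. The intermediate filament gene Vim fell, with 204, 230.0 and 205 TPM in Ddx27KD, against 286, 302 and 309 TPM in EGFPKD (log2 change -0.52 ± 0.07, adjusted p = 2.27e-05), and the epithelial cadherin gene Cdh1 rose, with a log2 change of 0.16 (adjusted p = 0.0142). Among 60 lysosome and autophagy genes 12 rose and 15 fell. The lysosomal mannosidase gene Man2b1 had 60.4, 62.3 and 54.2 TPM in Ddx27KD, against 21.2, 19.7 and 21.3 TPM in EGFPKD (log2 change 1.49 ± 0.11, adjusted p = 8.93e-08), while Tfeb, the transcription factor of lysosomal genes, had 31.3, 34.9 and 31.99 TPM in Ddx27KD, against 47.2, 50.4 and 47.9 TPM in EGFPKD (log2 change -0.60 ± 0.09, adjusted p = 6.25e-05).

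The nuclear noncoding RNAs Neat1 and Malat1 rose. Neat1, the architectural RNA of paraspeckles, had 34.1, 29.6 and 30.8 TPM in Ddx27KD, against 15.5, 12.5 and 12.5 TPM in EGFPKD (log2 change 1.20 ± 0.15, adjusted p = 2.37e-05). Malat1, an RNA of nuclear speckles, had 121, 117 and 136 TPM in Ddx27KD, against 72.4, 59.9 and 71.5 TPM in EGFPKD (log2 change 0.85 ± 0.15, adjusted p = 3.39e-04), and the paraspeckle protein gene Pspc1 had 128, 129 and 124 TPM in Ddx27KD, against 84.3, 79.7 and 91.3 TPM in EGFPKD (log2 change 0.56 ± 0.05, adjusted p = 9.38e-07). The list of 20 paraspeckle and nuclear RNA genes had 4 higher and 2 lower, and 5 lower with the replicate block. Nonsense-mediated decay destroys messages with early stop codons. Of its 17 genes, 7 rose and 6 fell, and 3 fell without Ddx27KD replicate 1 and 2 without EGFPKD replicate 1. Upf2 had 48.5, 47.04 and 45.5 TPM in Ddx27KD, against 34.4, 32.8 and 30.97 TPM in EGFPKD (log2 change 0.50 ± 0.07, adjusted p = 2.78e-05), and Smg5 had a log2 change of 0.26. Eif4a3, a helicase of the exon junction complex, and Etf1, the release factor, fell by 0.27 and 0.33. Of 18 hosts of small nucleolar RNAs, 2 fell and none rose (0 by edgeR, DESeq2 and limma-voom, and 1 at an unadjusted p under 0.05), and 4 fell and 3 rose with the block. The share called without the block was 11.1%, against 33.4% of all genes.

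Of 53 DEAD-box and DEAH-box genes other than Ddx27, 6 rose and 6 fell, so 22.6% were called, against 33.4% of all genes. With the replicate block 10 rose and 16 fell, so 49.1% were called, against 45.8% of all genes. Dhx16, a splicing helicase, had 206, 202 and 183 TPM in Ddx27KD, against 123, 128 and 128 TPM in EGFPKD (log2 change 0.62 ± 0.06, adjusted p = 2.37e-06), and Ddx59 and Dhx35 had log2 changes of 0.59 and 0.50. R-loops are hybrids of RNA and DNA, and the series concerns proteins that bind them. Of 39 R-loop factors, 4 rose and 5 fell, so 23.1% were called, fewer than among all genes. With the block 11 fell, and 43.6% were called. Thoc6, of the THO export complex, had 138, 133 and 114 TPM in Ddx27KD, against 75.8, 80.2 and 79.7 TPM in EGFPKD (log2 change 0.69 ± 0.07, adjusted p = 3.95e-06), and Top3b, a topoisomerase that acts on RNA, had a log2 change of 0.62. Rnaseh1, which digests the RNA of the hybrids, had 35.1, 32.8 and 32.3 TPM in Ddx27KD, against 38.2, 34.97 and 33.8 TPM in EGFPKD (adjusted p = 0.212). Of 28 apoptosis genes outside the p53 targets, 3 rose and 7 fell, and 6 rose with the block.

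Outside the p53 and Atf4 targets, genes of many kinds led the higher side by size of change. Among the p53 targets the highest called log2 change was 3.81. Cpz, a carboxypeptidase that binds Wnt proteins, had 9.62, 12.01 and 10.5 TPM in Ddx27KD, against 0.490, 0.830 and 1.32 TPM in EGFPKD (log2 change 3.58 ± 0.36, adjusted p = 2.34e-06). The chloride channel family gene Ano3 had 7.87, 8.46 and 7.32 TPM in Ddx27KD, against 0.470, 0.830 and 0.690 TPM in EGFPKD (log2 change 3.55 ± 0.22, adjusted p = 2.68e-08). Trp73, which encodes a relative of p53, had 14.5, 14.6 and 14.7 TPM in Ddx27KD, against 1.48, 2.22 and 2.02 TPM in EGFPKD (log2 change 2.91 ± 0.24, adjusted p = 2.76e-07). Insm1, a neuroendocrine transcription factor, rose together with Neurod1 and had 7.65, 7.04 and 5.55 TPM in Ddx27KD, against 0.870, 0.710 and 1.41 TPM in EGFPKD (log2 change 2.73 ± 0.33, adjusted p = 1.18e-05). At higher levels, the syndecan gene Sdc4 had 158, 171 and 159 TPM in Ddx27KD, against 25.5, 26.8 and 28.1 TPM in EGFPKD (log2 change 2.58 ± 0.18, adjusted p = 6.62e-08), and the secreted peroxidase gene Gpx3 had 98.3, 115 and 90.1 TPM in Ddx27KD, against 13.7, 17.6 and 20.5 TPM in EGFPKD (log2 change 2.52 ± 0.25, adjusted p = 2.01e-06). Rtkn, whose exons overlap those of Wdr54, had a log2 change of 3.01. None of these genes overlapped between the groups, which the rule for naming them required.

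Losses were smaller in fold. The glutathione-degrading enzyme gene Ggt1 had 3.29, 3.10 and 4.13 TPM in Ddx27KD, against 8.72, 9.23 and 8.82 TPM in EGFPKD (log2 change -1.38 ± 0.12, adjusted p = 5.42e-07). Itga9, an integrin subunit, had 4.74, 5.17 and 4.54 TPM in Ddx27KD, against 10.2, 12.6 and 12.3 TPM in EGFPKD (log2 change -1.30 ± 0.12, adjusted p = 1.21e-06). Gpt2, the mitochondrial alanine aminotransferase, had 16.1, 15.7 and 19.8 TPM in Ddx27KD, against 34.2, 41.1 and 37.6 TPM in EGFPKD (log2 change -1.16 ± 0.09, adjusted p = 2.39e-07). In absolute TPM the losses were led by Hspa8, and abundant cytoskeletal and chromatin genes were among the next. Actg1, a cytoplasmic actin, had 3119, 3098 and 3273 TPM in Ddx27KD, against 3611, 3589 and 4006 TPM in EGFPKD (log2 change -0.27 ± 0.05), Tuba1b, an alpha tubulin, had 2455, 2427 and 2283 TPM in Ddx27KD, against 2938, 2981 and 2885 TPM in EGFPKD (log2 change -0.32 ± 0.06), and the histone variant gene H2afz had 1345, 1264 and 1368 TPM in Ddx27KD, against 1835, 1650.1 and 1785 TPM in EGFPKD (log2 change -0.43 ± 0.07). Their adjusted p were 4.83e-04, 9.46e-04 and 1.21e-04. Actins, tubulins and histones have near-identical copies, between which the counting could split reads.

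The deposited files also give, for each gene, a transcript length weighted by the estimated abundance of its isoforms, so that a change in this length marks a change in isoform shares. Of 3024 genes with a varying length and a mean count of at least 100 in both groups, 21 changed (0.694%; limma moderated test, adjusted p under 0.05), 15 longer and 6 shorter in Ddx27KD. The replicate block gave 33, of which 18 were among the 21, and fits without 1 library gave 8 (Ddx27KD replicate 2) to 19, with 13 without EGFPKD replicate 2. At an unadjusted p under 0.05 there were 335. Most of the 21 changes were slight: 5 were of at least 1.1-fold and 7 were smaller than 2%.

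Pnkd showed the largest change in length. Its weighted length was 1669, 1691 and 1780.5 bases in Ddx27KD, against 1166, 1147 and 1202 bases in EGFPKD, a log2 change of 0.55 ± 0.06 (adjusted p = 0.00211). The transcripts listed for it in the files measure 2937, 2859 and 740 bases in the GENCODE M21 models matched to them, so the longer ones took a greater estimated share in Ddx27KD. The count of Pnkd, a gene of paroxysmal dyskinesia, rose as well, with a log2 change of 1.01. Rgs12, a regulator of G protein signalling, became shorter. Its length was 3912, 3980 and 4005 bases in Ddx27KD, against 4782, 4813 and 4581 bases in EGFPKD (log2 change -0.25 ± 0.02, adjusted p = 2.39e-05), and its isoforms measure 3439 and 5472 bases. Its count rose, with a log2 change of 1.25. Sptbn4, a spectrin, had a log2 length change of -0.16 ± 0.02 (adjusted p = 0.00287). Adam23, a membrane protein of the disintegrin family, had weighted lengths of 4458, 4509 and 4567 bases in Ddx27KD, against 4225, 4187 and 4170.3 bases in EGFPKD (log2 length change 0.11 ± 0.02, adjusted p = 0.0222). Its count was not called (log2 change -0.01, adjusted p = 0.929), and its length call held without Ddx27KD replicate 1 (adjusted p = 0.0403) but was lost without any other single library of the 6, with adjusted p of 0.0518 to 0.0764. Tiam2 had a log2 length change of 0.49 ± 0.10 (adjusted p = 0.0493), and its call was lost in each of the 6 fits without 1 library, in which its adjusted p was 0.0804 to 0.158.

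**Figure D5:**
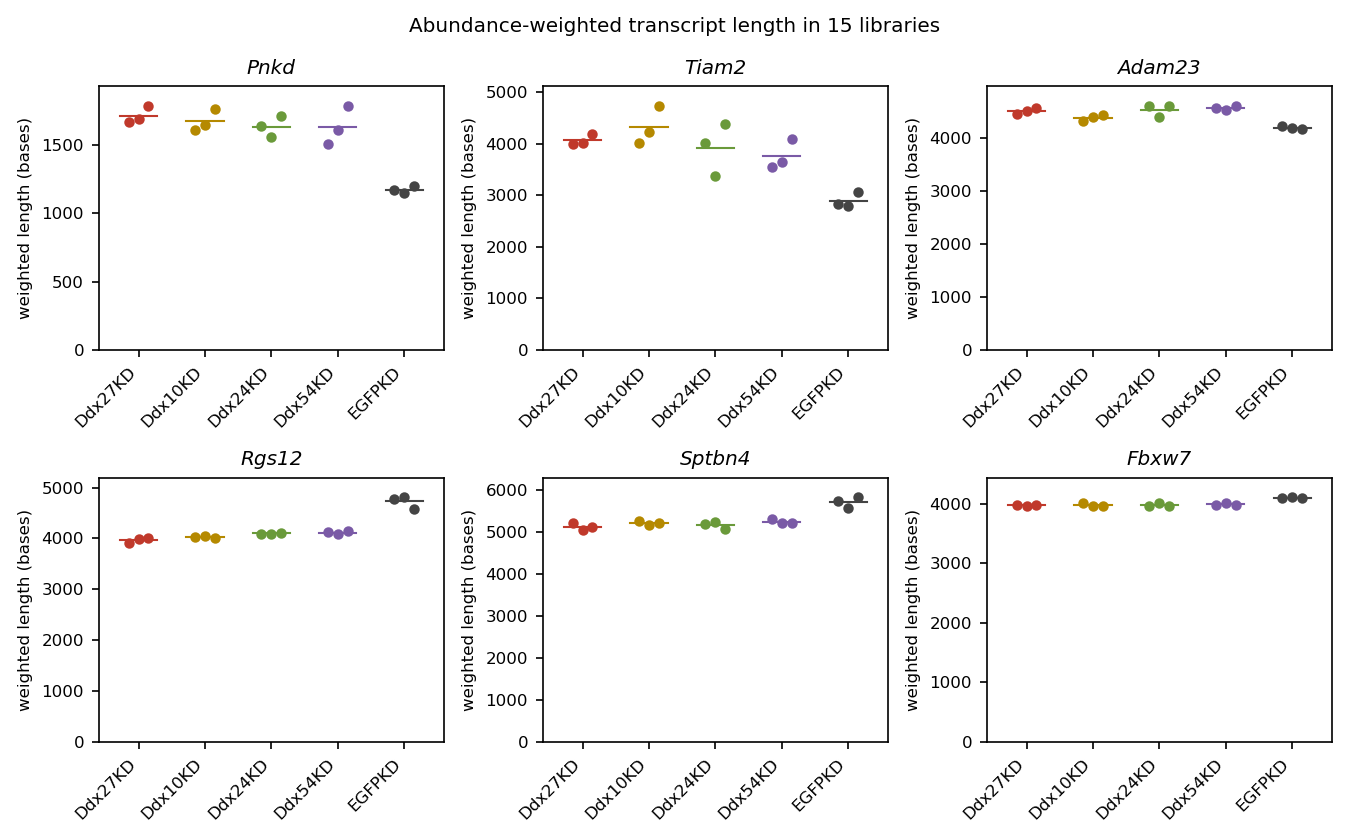
Abundance-weighted transcript length in bases of 6 genes in the 15 libraries (points, 3 per group) with the mean of each group (lines). Pnkd, Tiam2 and Adam23 are longer in Ddx27KD than in EGFPKD, and Rgs12, Sptbn4 and Fbxw7 are shorter, without overlap between these 2 groups. For Pnkd the Ddx27KD libraries sit at 1669 to 1780.5 bases and the EGFPKD libraries at 1147 to 1202 bases.

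A last comparison set Ddx27KD against the mean of the other 3 knockdowns, a difference in which the EGFPKD libraries have no part beyond the shared estimate of spread. Few genes differed. Of 14335 genes, 5 were called (0.0349%) by edgeR, 4 higher (0.0279%) and 1 lower (0.00698%), against 890 at an unadjusted p under 0.05. Ddx27 itself had a difference of -2.03 ± 0.05 on the log2 scale (adjusted p = 2.85e-13). The next 3 were Ddx10, Ddx54 and Ddx24, at 0.75 ± 0.08, 0.53 ± 0.06 and 0.51 ± 0.06, each the target of 1 of the other knockdowns. The fifth, named after its values were seen, was Eif4b, an initiation factor that stimulates the helicase Eif4a1. It had 540.2, 515 and 542 TPM in Ddx27KD, 505 to 513 TPM in Ddx24KD and 478 to 519 TPM in Ddx54KD, so the libraries overlapped (difference 0.22 ± 0.04, adjusted p = 0.046). Ddx10KD was the low group, with 366 to 404 TPM, below the 459 to 474 TPM of EGFPKD. DESeq2 called 12 genes, and the replicate block called 64 (0.446%), 52 higher and 12 lower.

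Of the 64 genes called with the block, 52 were also called against EGFPKD, where 33.4% of all genes were called, and 51 of these had the same direction. In 14 of the 64 the Ddx27KD libraries did not overlap with the other 9, a share that was not counted over all genes. Genes of the Notch and Nodal pathways were among the 64, as were Anxa8, Smg5, Cad and the p53 target Plk2. Dll1 had 18.9, 17.9 and 20.6 TPM in Ddx27KD and 7.24 to 18.7 TPM in the other knockdowns, a difference of 0.70 ± 0.18 on the log2 scale (adjusted p = 0.00687 with the block, and 0.605 without it). Hes6 differed by 0.53 ± 0.14 (adjusted p = 0.00586 with the block, 0.605 without), and Lefty1 by 0.41 ± 0.13 (adjusted p = 0.00189 with the block, 0.684 without). In all 3 genes the Ddx27KD libraries overlapped with those of another knockdown. Trp73 differed by 0.56 ± 0.16 (adjusted p = 0.0339 with the block, 0.631 without). Nodal and Notch3 were not called in either fit, with differences of 0.25 ± 0.09 and 0.21 ± 0.08 (adjusted p with the block of 0.0781 and 0.101). For the assembly partners of Ddx27 the differences were small and not called: Wdr12 had -0.12 ± 0.04 and Bop1 -0.06 ± 0.05 (adjusted p with the block of 0.0872 and 0.484).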

How the data were processed

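Poly(A) RNA of 15 libraries was sequenced, and the deposited expected counts, TPM values and weighted transcript lengths per gene were made with RSEM against mm10 (the submitters' processing notes and the file headers). The RSEM version, the aligner, the annotation release and strandedness are not stated in them. A deposited table also holds the authors' posterior probabilities (a score) and fold ratios per gene.

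Expected counts were rounded to whole numbers and fitted in edgeR 4.0.16 (R 4.3.3) with TMM factors, the default filter on low counts and a quasi-likelihood test over all 15 libraries, with Benjamini-Hochberg adjustment over 14335 genes and calls at an adjusted p under 0.05. Tested genes held 99.97% of counts. Log2 weighted lengths were tested with limma 3.58.1 in genes with a mean count of at least 100 in both groups. Alternatives were other scaling factors, filters and thresholds, DESeq2 1.42.0, limma-voom, the replicate block and leaving out each library. Scripts were tested on simulated data. Depth was 26836946 to 27650746 counts in the 6 libraries compared.

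The labels give every group the replicate numbers 1 to 3. Deviations from group means correlated in all 30 pairs of libraries with the same number (r = 0.106 to 0.335, and 0.113 to 0.209 between Ddx27KD and EGFPKD), and 15 of 15 libraries resembled their own number most, so the numbers can be read as pairs. The main fits had no term for the number, and their SE and p-values ignore this pairing. The replicate block, which holds that term, was run as an alternative. Blocked values are printed where they change a call or move a count by over 1.5 times.

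Members and gene lists were chosen with earlier results of these data known. Genes named were Ddx27, marker genes of each list, the 5 members of a list with the smallest p, and up to 20 genes each way by log2 change and 10 by TPM difference. Those ranked by log2 change or TPM difference were called genes of at least 5 TPM whose libraries did not overlap. The ranking left out the p53 and Atf4 lists and predicted gene models (Gm or Rik names). Members named beyond this naming rule were chosen after their values were seen. Some genes that the rule names are not reported here.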

Additional observations from a re-analysis of the deposited data

How the results depend on the processing

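Of 4788 genes called against EGFPKD, 3039 were called at an adjusted p under 0.01 and 796 changed at least 2-fold, and fits without 1 library called 3880 to 4201. The count stayed within 1.5 times under the other alternatives, 6571 with the replicate block. Of 5 genes called against the other knockdowns, 1 changed at least 2-fold, DESeq2 called 12, the replicate block 64, and fits without 1 library 4 to 6. The length test called 21 genes, 33 with the replicate block, 5 at 1.1-fold or more, and 8 to 19 without 1 library. For the genes and lists whose values are given, the replicate block changed no other call and moved no other count by over 1.5 times. Moves of a list's count by 1 gene, with the block or without 1 library, are not listed. Of 170 named genes called against EGFPKD, 167 kept the call in every fit without 1 library. Polr1a, Polr1b, Cdk1 and Plk2 are left out of these statements on the block and on single libraries.
The log2 change of some uncalled genes close to 0 turned its sign, and the cause was not tested. Adam23 had -0.009, but 0.009 with a filter of at least 10 CPM in 3 libraries, 0.008 with library totals alone, 0.001 with upper-quartile factors and -0.052 to 0.05 without 1 library. Axin2 had 0.045, but -0.015 to 0.159 without 1 library. Ccnb1 had -0.003, but 0.016 with a filter of at least 10 CPM in 3 libraries, 0.014 with library totals alone, 0.006 with upper-quartile factors and -0.026 to 0.01 without 1 library. Dkc1 had -0.009, but 0.009 with a filter of at least 10 CPM in 3 libraries, 0.008 with library totals alone, 0.0 with upper-quartile factors and -0.026 to 0.006 without 1 library. Hspa5 had -0.027, but -0.091 to 0.046 without 1 library. Id1 had -0.085, but -0.268 to 0.028 without 1 library. Klf4 had 0.084, but -0.056 to 0.197 without 1 library. Rpl22 had -0.002, but 0.001 with the 6 libraries alone, 0.017 with a filter of at least 10 CPM in 3 libraries, 0.016 with library totals alone, 0.008 with upper-quartile factors and -0.048 to 0.041 without 1 library. Znfx1 had -0.004, but 0.015 with a filter of at least 10 CPM in 3 libraries, 0.014 with library totals alone, 0.006 with upper-quartile factors and -0.097 to 0.09 without 1 library.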

Other observations

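Genes outside the lists changed as well. Among those with the largest rises, Zfp365 had 61.2, 62.8 and 58.4 TPM in Ddx27KD, against 8.69, 10.8 and 9.58 TPM in EGFPKD (log2 change 2.62 ± 0.17, adjusted p = 2.71e-08), and Anxa8, an annexin that binds membranes in the presence of calcium, had 11.9, 14.1 and 12.97 TPM in Ddx27KD, against 1.49, 2.33 and 1.38 TPM in EGFPKD (log2 change 2.87 ± 0.23, adjusted p = 2.38e-07). Cd109, a membrane protein that binds TGF-beta, had 18.4, 18.9 and 20.7 TPM in Ddx27KD, against 2.74, 2.25 and 2.98 TPM in EGFPKD (log2 change 2.84 ± 0.29, adjusted p = 2.64e-06). Among those that fell, Hopx, a homeodomain protein without DNA binding of its own, had 4.39, 3.07 and 3.88 TPM in Ddx27KD, against 11.7, 7.28 and 9.27 TPM in EGFPKD (log2 change -1.36 ± 0.25, adjusted p = 5.60e-04). Nefl, the light neurofilament gene, whose exons overlap those of Nefm, had 19.6, 17.4 and 18.1 TPM in Ddx27KD, against 39.95, 32.1 and 50.7 TPM in EGFPKD (log2 change -1.18 ± 0.13, adjusted p = 4.69e-06). None of these genes overlapped between the groups, which the rule for naming them required.

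The authors' deposited table of this comparison listed 18744 genes, of which 3433 had a posterior probability of differential expression of at least 0.95, 1654 higher and 1779 lower in Ddx27KD. Of those in the authors' deposited table at this level, 3429 were also tested here, 3243 were called by edgeR, and all 3429 had the same direction. In the other direction, 67.7% of the 4788 genes called by edgeR reached this level in the authors' deposited table. Among those that did not were Dux at 1.93e-09, Cyr61 at 0.0883, Lefty2 at 0.159 and Stra8 at 0.787.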
